A study of Mus musculus with 3 samples.

Results

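The phagocyte NADPH oxidase is described here through 5 of its genes, Cybb, Cyba, Ncf1, Ncf4 and Rac2. They were chosen by their symbols in the deposited gene list, which holds 31053 genes, and all 5 were measured in mouse blood leukocytes by droplet single-cell RNA sequencing.

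The C57/BL6J mice formed 3 labelled groups, controls sampled at 0 h (Con) and mice that were deprived of sleep for 24 h (SD24h) or 48 h (SD48h). Each group is 1 library of the pooled blood leukocytes of 3 mice, prepared after red cell lysis, so differences between mice cannot be seen. The barcodes end in 1, 2 or 3, read here as library 1, 2 and 3, and the labels do not link these endings to the groups. No effect of sleep deprivation was therefore estimated, no library served as the control, and no p-value is given. Values are compared between cell classes inside each library and repeated over the 3 libraries. Intervals are exact 95% intervals, except for ratios of ratios, which have normal intervals on the log scale, and cover counting error only.

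Libraries 1, 2 and 3 held 8815, 6648 and 6741 barcodes with 40807434, 30114546 and 36523283 unique molecular identifiers (UMIs), and 61 barcode sequences occurred in more than 1 library. After filtering, 6864, 5775 and 5578 cells were kept. Classes were named from RNA markers, which is why their names end in "-like". Neutrophil-like cells numbered 542, 3261 and 2001, or 7.90%, 56.5% and 35.9% of kept cells, and monocyte-like cells 404, 416 and 516. Their median UMI count per cell was 2747, 3232 and 5142 for neutrophil-like and 8636, 10985 and 11783 for monocyte-like cells. Library 1 stands apart in that nearly all of its neutrophil-like cells, 531 of 542, fell in a cluster whose leading genes were Jaml, Lst1 and Cd101 and that held 22 such cells in library 2. That cluster met 7 of 15 neutrophil markers, and platelet marker genes summed to 9001 UMIs per 1000000 in the neutrophil-like cells of library 1 against 2680 and 2436 in libraries 2 and 3. The part of platelet RNA in the results on library 1 was not tested.

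The phagocyte oxidase is a multi-subunit enzyme that passes electrons from NADPH across a membrane to oxygen and makes superoxide, the start of the respiratory burst. Its catalytic core is a membrane heterodimer of gp91phox (Cybb) and p22phox (Cyba). In resting cells p47phox (Ncf1) and p40phox (Ncf4) stay in the cytosol, and on activation they move to the membrane together with a Rac GTPase, mostly Rac2 in neutrophils. Loss of gp91phox, p22phox or p47phox causes chronic granulomatous disease, in which neutrophils and monocytes fail to kill certain bacteria and fungi. Much of the membrane heterodimer of neutrophils is stored in granules, and its RNA need not follow the amount of protein.

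The 5 subunit genes did not share 1 pattern over the blood classes. Cybb was highest in monocyte-like cells and low in neutrophil-like cells, Ncf1 and Rac2 were highest in neutrophil-like cells, Ncf4 was at the same CPM in the phagocyte classes within its intervals, and Cyba and Rac2 were also abundant in NK-like cells. Levels (counts per 1000000, CPM) are UMIs summed over a class in 1 library, per 1000000 UMIs of that sum. The kit counts 1 tag near the 3′ end of each captured molecule, so CPM is not divided by gene length, and ratios between genes are read only from class to class or library to library. A gene was called highest in a class when it led the other 4 classes (of neutrophil-, monocyte-, B-, T- and NK-like cells) in all 3 libraries, with an interval of its ratio to the next class that excludes 1, among genes with at least 20 UMIs over these classes in each library. By that rule Ncf1 and Rac2, 2 of 5, were highest in neutrophil-like cells, against 6.16% of 11128 genes. Cybb and Cyba, 2 of 5, were highest in monocyte-like cells, against 6.51% of the same genes. Ncf4 had no leading class. TMM scaling (trimmed mean of M-values), which raises log2 values in neutrophil-like cells by 0.12, 0.90 and 1.07 in libraries 1, 2 and 3 and lowers those of monocyte-like cells by between 0.16 and 0.23, gave 4 of 5 members highest in neutrophil-like cells, against 14.8% of 11128 genes, and left only Cybb in monocyte-like cells, against 5.08%.

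**Figure D1:**
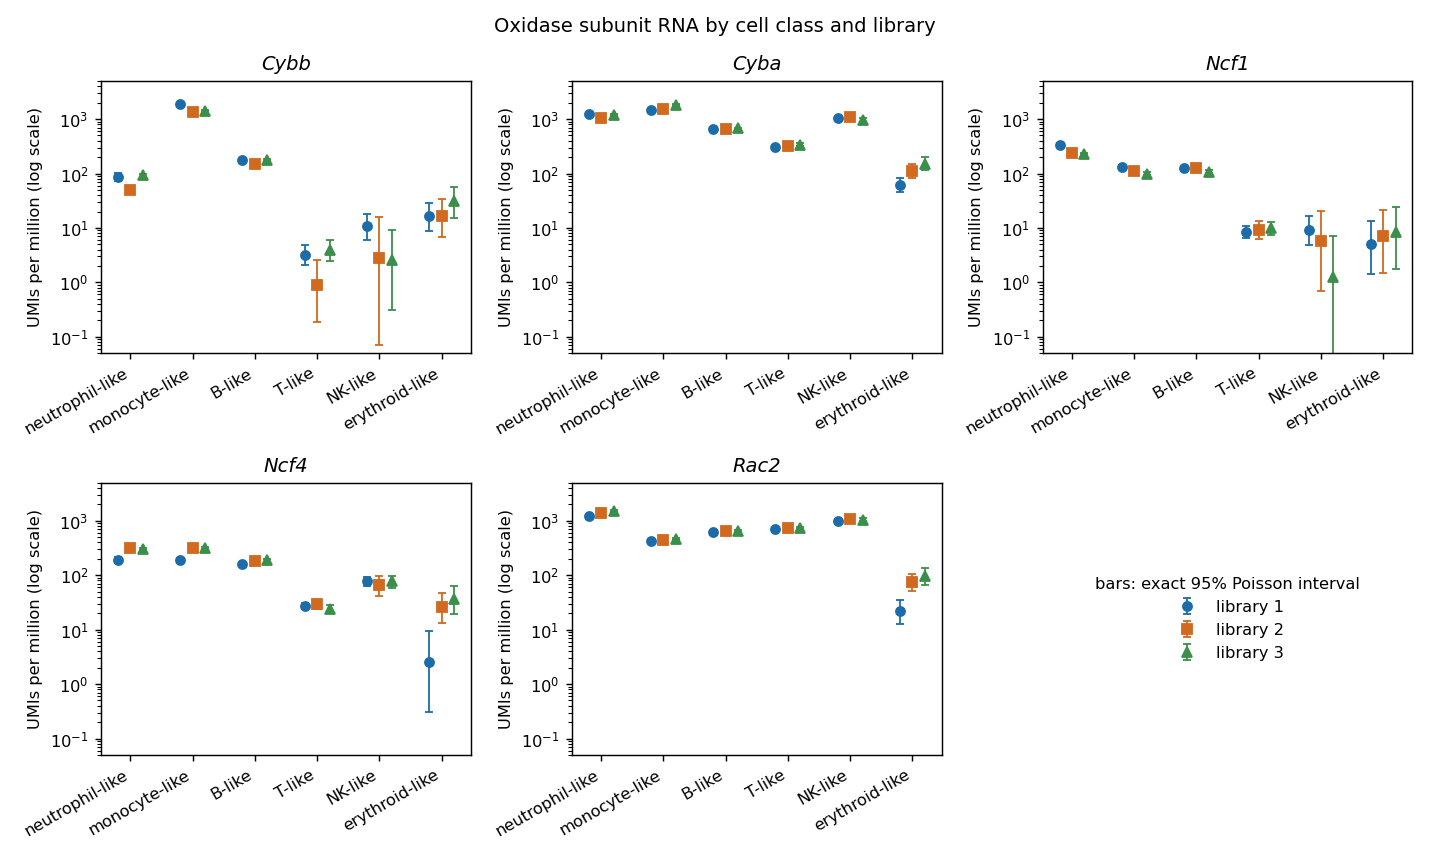
CPM (log scale) of each subunit gene in 6 cell classes, with 1 point per library and bars for the exact 95% Poisson interval. Cybb in monocyte-like cells lies between 1348 and 1894 and in neutrophil-like cells between 50.05 and 92.5, while Rac2 exceeds 400 in each of the 5 leukocyte classes.

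Cybb encodes gp91phox, the flavocytochrome that carries the electrons, and lies at chrX:9435252-9487771 on the minus strand (GRCm38, GENCODE). In monocyte-like cells it stood at 1894, 1348 and 1408 CPM in libraries 1, 2 and 3. Neutrophil-like cells held 86.3, 50.05 and 92.5 CPM. The 2 ranges do not overlap, and monocyte-like cells were 22.0-fold (18.5 to 26.3), 26.9-fold (24.7 to 29.4) and 15.2-fold (14.3 to 16.2) higher. With TMM scaling the same ratios were 17.1, 12.8 and 6.47. Per cell this was 16.8, 14.5 and 16.6 UMIs in monocyte-like cells and 0.247, 0.178 and 0.519 UMIs in neutrophil-like cells, which also hold less RNA in total.

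B-like cells carried more Cybb CPM than neutrophil-like cells in each library, at 179, 150 and 178 CPM. The B-like level was 2.08-fold (1.75 to 2.49), 2.99-fold (2.69 to 3.33) and 1.93-fold (1.77 to 2.09) that of neutrophil-like cells. With TMM scaling the ratio was 1.74, 1.43 and 0.836, so that the order turned in library 3. T-like cells were near the limit of counting, at 3.23, 0.897 and 3.91 CPM from 25, 3 and 21 UMIs. NK-like cells held 14, 1 and 2 Cybb UMIs in all. Erythroid-like cells, which should lack the oxidase, gave 16.7, 16.8 and 31.0 CPM from 13, 7 and 11 UMIs, above the T-like level. B cell marker genes summed to 430, 1368 and 2372 CPM in the erythroid-like cells, with 11 of 11 detected, and to between 39.8 and 171 CPM in T-like cells. Their part in the erythroid-like Cybb was not tested.

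Stretches of promoter are printed for 3 members because Cybb and Ncf1 both hold a paired GAAA motif of the kind that interferon regulatory factors bind, and Cyba does not. The motif searched was GAAA, any 2 bases, GAAA. In human cells the CYBB promoter is a textbook target of PU.1 with IRF1 and IRF8. The sequences are from RefSeq (GRCm38.p6), minus strand, 5′ to 3′, with matches on either strand in capitals.
Cybb, chrX:9469325-9469504: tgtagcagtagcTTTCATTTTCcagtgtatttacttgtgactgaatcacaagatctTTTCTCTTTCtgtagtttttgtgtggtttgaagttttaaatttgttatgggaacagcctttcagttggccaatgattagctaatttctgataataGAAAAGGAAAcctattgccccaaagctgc
Ncf1, chr5:134229626-134229725: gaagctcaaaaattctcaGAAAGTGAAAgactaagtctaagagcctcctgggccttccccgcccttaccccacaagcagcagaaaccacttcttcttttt
Cyba, chr8:122432941-122433040: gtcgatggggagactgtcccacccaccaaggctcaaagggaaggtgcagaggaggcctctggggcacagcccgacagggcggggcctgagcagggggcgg

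The Cybb window holds 3 matches, at -29 on the gene's strand and at -124 and -168 on the opposite strand, counted from the RefSeq start. Ncf1 holds 1 match, at -82. The Cyba promoter, searched from 250 bases before to 50 bases after its start, holds none. Of 32851 promoters of that length, 3.44% hold the motif. The purine core GAGGAA, searched on both strands as a PU.1-like motif, occurs in 28.3% of the promoters, 1 time in Cybb at 10 on the opposite strand, and in neither Ncf1 nor Cyba. The RefSeq start of Cybb lies inside the longer GENCODE gene. These are matches of letters, and no binding was measured. Ncf4 and Rac2 had no entry in the promoter table used.

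Cyba encodes p22phox, the partner that stabilises gp91phox, and lies at chr8:122424776-122432930 on the minus strand. The GENCODE model Gm20388 overlaps it on the other strand and held 0 UMIs in the classes, and the sources used here do not say whether counting used the strand. In libraries 1, 2 and 3 the Cyba level was 1495, 1560 and 1835 CPM for monocyte-like cells. For neutrophil-like cells it was 1264, 1033 and 1203 CPM. NK-like cells lay close to the latter, at 1036, 1070 and 963 CPM. The ratio of neutrophil-like to NK-like cells was 1.22 (1.14 to 1.31), 0.965 (0.871 to 1.07) and 1.25 (1.16 to 1.35), so the order of these neighbours was not resolved in library 2.

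B-like cells held 659, 647 and 679 CPM of Cyba and T-like cells 313, 327 and 341 CPM, and neither range overlaps that of another leukocyte class. Monocyte-like cells exceeded neutrophil-like cells 1.18-fold (1.12 to 1.25), 1.51-fold (1.47 to 1.56) and 1.52-fold (1.49 to 1.56). This direction depends on the scaling. S100a8 and S100a9, 2 calcium-binding proteins that fill the neutrophil cytosol, took a large part of neutrophil-like UMIs. With both left out of the totals the neutrophil-to-monocyte ratio of Cyba was 0.963, 0.886 and 0.942, and with TMM scaling it was 1.08, 1.39 and 1.54, above 1 in every library.

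Among the cytosolic subunits, Ncf1 encodes p47phox, the organiser that is phosphorylated on activation, and lies at chr5:134220053-134229625 on the minus strand. It overlaps Gtf2ird2 on the other strand, and whether counting used the strand is not known here. Gtf2ird2 stood at 1.93 CPM or less in neutrophil-like cells and at most 2.97 CPM in monocyte-like cells. Neutrophil-like cells held 332, 236 and 230 CPM of Ncf1 and monocyte-like cells 130, 110 and 100.1 CPM. The classes do not overlap, and neutrophil-like cells were 2.54-fold (2.24 to 2.89), 2.15-fold (1.95 to 2.37) and 2.30-fold (2.11 to 2.52) higher. TMM scaling widened this to 3.26, 4.51 and 5.41.

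B-like cells carried Ncf1 at 124, 128 and 109 CPM, beside the monocyte-like level. The monocyte-to-B ratio was 1.05 (0.951 to 1.16), 0.858 (0.763 to 0.964) and 0.920 (0.827 to 1.02), so these neighbours were not told apart in libraries 1 and 3. T-like cells were at 8.40, 9.27 and 10.1 CPM, and NK-like cells held 12, 2 and 1 Ncf1 UMIs. The overlapping Gtf2ird2 was near these levels, at 6.72, 7.47 and 7.83 CPM for T-like cells and with 15, 2 and 9 UMIs in NK-like cells. Its part in the Ncf1 counts of T-like and NK-like cells was not tested. B-like cells thus held more Cybb and Ncf1 RNA than the other lymphocyte classes in every library.

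Ncf4 encodes p40phox, whose PX domain binds a phosphoinositide of the phagosome membrane, and lies at chr15:78244801-78262580 on the plus strand. Neutrophil-like cells held 192, 318 and 302 CPM of it and monocyte-like cells 193, 314 and 311 CPM. The ratio between them was 0.992 (0.864 to 1.14), 1.014 (0.954 to 1.08) and 0.970 (0.917 to 1.03), and every interval included 1. With TMM scaling it was 1.27, 2.13 and 2.28, and without S100a8 and S100a9 in the totals 1.13, 1.36 and 1.39, so a level ratio holds for plain CPM only. B-like cells held 160, 181 and 188 CPM, T-like cells 27.3, 29.3 and 23.8 CPM, and NK-like cells 77.8, 64.9 and 76.7 CPM. NK-like cells were 2.85-fold (2.23 to 3.64), 2.22-fold (1.34 to 3.52) and 3.22-fold (2.33 to 4.40) above T-like cells.

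Rac2 encodes the haematopoietic Rac GTPase, a switch that serves the oxidase when loaded with GTP and also moves the actin cytoskeleton, and lies at chr15:78559167-78572783 on the minus strand. Neutrophil-like cells held 1215, 1408 and 1528 CPM of Rac2. NK-like cells followed at 1000, 1084 and 1046 CPM and T-like cells at 717, 728 and 733 CPM. B-like cells held 617, 643 and 661 CPM, and monocyte-like cells were the lowest leukocyte class at 432, 439 and 465 CPM. No 2 classes overlap, and the order was the same in each library. Neutrophil-like cells exceeded NK-like cells 1.22-fold (1.13 to 1.31), 1.30-fold (1.17 to 1.44) and 1.46-fold (1.36 to 1.57), the closest pair at the top. With TMM scaling NK-like and T-like cells were level, with ratios of 0.971, 1.04 and 1.04.

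Against T-like cells, all 5 members were higher in neutrophil-like cells in all 3 libraries with intervals excluding 1, where 21.4% of 9405 genes were. In monocyte-like cells 4 of 5 were higher (35.1% of 9803 genes), as in B-like cells (28.3% of 9810 genes), and in both the exception was Rac2, which was lower. The comparison of neutrophil-like with monocyte-like cells divided the members. Ncf1 and Rac2 were above, where 12.6% of 8991 genes were, and Cybb and Cyba below, where 47.2% were. Rac2 was 2.81-fold (2.63 to 3.01), 3.21-fold (3.06 to 3.36) and 3.29-fold (3.16 to 3.42) higher in neutrophil-like cells.

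**Figure D2:**
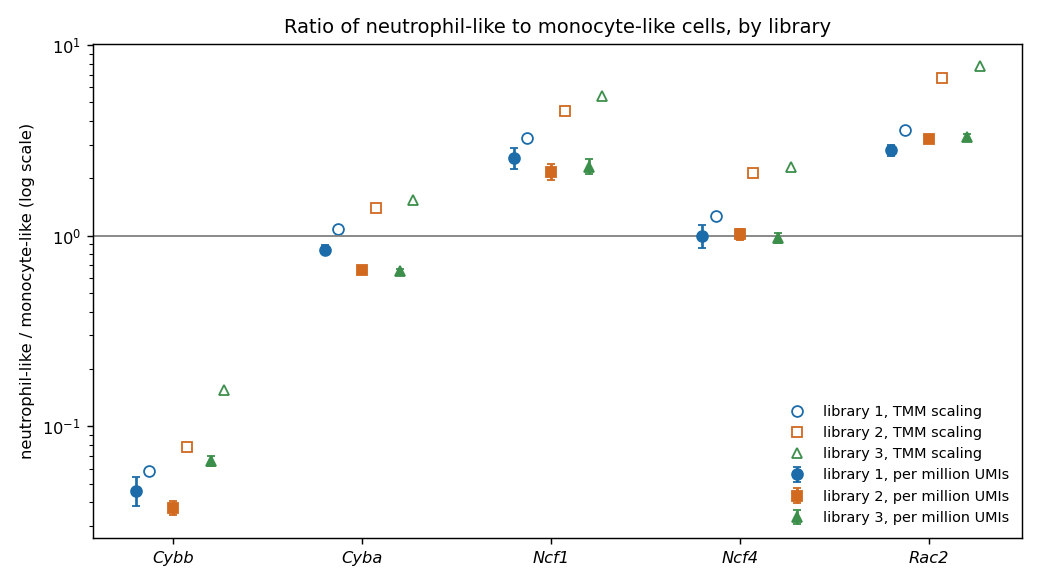
Ratio of the level in neutrophil-like to that in monocyte-like cells (log scale) for each subunit gene and library, filled for CPM with exact 95% intervals and open for TMM scaling. Cybb lies below 0.16 on both scalings and Ncf1 and Rac2 above 2 on both, while Cyba crosses 1 with the scaling.

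The UMI ratio of the 2 membrane subunits does not depend on the scaling to totals. Cybb to Cyba was 1.27 (1.22 to 1.31), 0.864 (0.835 to 0.894) and 0.767 (0.746 to 0.789) in monocyte-like cells. In neutrophil-like cells it was 0.0683 (0.0569 to 0.0814), 0.0485 (0.0445 to 0.0527) and 0.0769 (0.0721 to 0.0819), and in B-like cells 0.272, 0.232 and 0.262. Both proteins form 1 dimer, and the ranges of their RNA ratio in the 3 classes do not overlap. Rac2 to Rac1, its widely expressed relative, was 2.10, 3.12 and 3.93 in neutrophil-like cells and 0.830, 0.921 and 0.921 in monocyte-like cells, higher in neutrophil-like cells in each library.

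Between libraries, Cybb and Ncf4 were the members whose CPM differed most in both phagocyte classes. Genes with at least 100 UMIs were called apart when the highest library was at least 1.5 times the lowest with an interval excluding 1. In neutrophil-like cells 2 of 5 members were apart, against 67.3% of 6666 genes. These were Cybb, 1.85-fold (1.67 to 2.05) higher in library 3 than in library 2, and Ncf4, 1.66-fold (1.47 to 1.87) higher in library 2 than in library 1. In monocyte-like cells only Ncf4 was apart, 1.62-fold (1.48 to 1.78) higher in library 2 than in library 1, against 26% of 8022 genes. Neutrophil marker genes moved between the same libraries, at 3382, 14342 and 8388 CPM summed in monocyte-like cells with 15 of 15 detected, and at 80431 CPM in a sub-cluster of 51 cells of library 2 led by Retnlg and S100a9. Without the monocyte-like sub-clusters led by genes of other cell types, an alternative chosen after the data were seen, the Ncf4 ratio was 1.70 (1.54 to 1.88). In B-like cells no member was apart, against 8.16% of 9171 genes, and the highest of the 5 ratios was 1.20 for Cybb. With TMM scaling 4 of 5 members were apart in neutrophil-like cells, against 55.9% of 6666 genes, and Rac2 then ranged from 1325 to 3218 scaled UMIs per 1000000.

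Ncf1 and Ncf4, whose proteins sit in the same cytosolic complex, stood apart in library 1, with Ncf1 at its highest and Ncf4 at its lowest CPM in both phagocyte classes. With TMM scaling Ncf1 was instead lowest in library 1 in neutrophil-like cells, at 361, 441 and 485 scaled UMIs per 1000000 in libraries 1, 2 and 3. In monocyte-like cells it stayed highest there, and Ncf4 stayed lowest there in both classes. A ratio of Ncf1 to Ncf4 UMIs does not depend on the scaling. In neutrophil-like cells Ncf1 to Ncf4 was 1.73 (1.496 to 2.00), 0.741 (0.705 to 0.779) and 0.764 (0.725 to 0.804) in libraries 1, 2 and 3. In monocyte-like cells it was 0.674 (0.598 to 0.759), 0.350 (0.315 to 0.388) and 0.322 (0.293 to 0.353). Library 1 was thus high in both phagocyte classes. Its ratio was 2.33 times (2.01 to 2.71) that of library 2 in neutrophil-like and 1.93 times (1.65 to 2.25) in monocyte-like cells, and 2.26 times (1.94 to 2.63) and 2.10 times (1.81 to 2.43) that of library 3. In B-like cells the ratio was 0.774, 0.707 and 0.580, and library 1 over library 2 gave 1.10 (0.979 to 1.22), with an interval that includes 1. Library 1 over library 3 gave 1.34 (1.20 to 1.48) and library 2 over library 3 gave 1.22 (1.07 to 1.39) in B-like cells, and both intervals exclude 1. In T-like cells it was 0.308, 0.316 and 0.422, with overlapping intervals. The neutrophil-like cells of library 1 fell mainly in their own cluster with the platelet signal given above. In its monocyte-like cells platelet markers summed to 3099 UMIs per 1000000, against 1158 and 1070. The part of that RNA in the ratio was not tested. Library 1 also had the highest median mitochondrial share over all barcodes, at 6.65%.

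**Figure D3:**
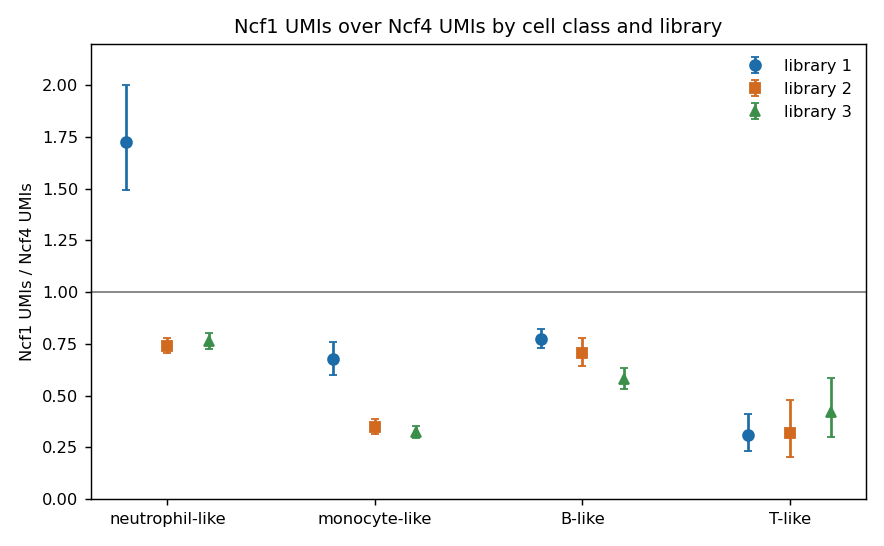
Ncf1 UMIs divided by Ncf4 UMIs in 4 cell classes, with 1 point per library and exact 95% intervals. Library 1 lies above libraries 2 and 3 in neutrophil-like and monocyte-like cells and overlaps them in T-like cells.

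Inside the neutrophil-like class, Cybb was the member that varied most between sub-clusters. The clustering left out the members and the listed pathway genes, and sub-clusters with at least 50 cells in a library are given by their leading genes. A sub-cluster led by Camp, Stfa2 and Ltf, marker genes of younger neutrophils, held 238 cells in library 3 and had Cybb at 186 CPM (167 to 205). A sub-cluster led by Mmp8 and Mov10, also with younger markers, had 70.1 CPM in library 2 (1296 cells) and 74.1 CPM in library 3 (535 cells). A sub-cluster led by Clec4n and Csf1, with mature markers, had 18.0 CPM (14.2 to 22.4, 1457 cells) and 20.9 CPM (12.2 to 33.5, 261 cells). The order was from the Camp-led through the Mmp8-led to the Clec4n-led cells, and the last 2 kept their order in both libraries that hold them.

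In library 3 Cybb was 8.88-fold (5.47 to 15.4) higher in the Camp-led than in the Clec4n-led cells, where 3.51% of 5525 genes were at least 2-fold higher. The Mmp8-led cells exceeded the Clec4n-led cells 3.90-fold (3.05 to 5.04) in library 2 and 3.54-fold (2.15 to 6.22) in library 3, where 1.07% of 5802 genes were at least 2-fold higher in both. At a sub-clustering resolution of 1 the Cybb ratios were larger and less certain. The Camp-led cells then exceeded the Clec4n-led cells 22.4-fold (6.16 to 185) in library 3, and the Mmp8-led cells did so 6.45-fold (4.52 to 9.44) in library 2 and 12.6-fold (3.21 to 109) in library 3, where the Clec4n-led cells held 2 Cybb UMIs. No other member reached 2-fold in these contrasts. At the main resolution the other members gave smaller ratios. For Ncf1 the 3 ratios were 1.90 (1.58 to 2.29), 1.29 (1.19 to 1.41) and 1.46 (1.21 to 1.76). For Cyba they were 1.56 (1.44 to 1.69), 0.916 (0.881 to 0.953) and 1.16 (1.08 to 1.26). Ncf4 gave 1.13 (0.982 to 1.30), 1.002 (0.933 to 1.08) and 0.887 (0.771 to 1.02), and Rac2 lay between 0.975 and 1.09. Depth moved with these groups: the median cell of library 3 held 8459 UMIs in the Camp-led, 4641 in the Mmp8-led and 2958 in the Clec4n-led cells. Monocyte marker genes, a list that includes Lyz2, summed to 3449 CPM in the Camp-led and 1154 in the Clec4n-led cells of library 3, with 14 and 10 of 15 detected. Over all neutrophil-like cells of library 3 the list summed to 2770 CPM, against 28684 CPM in monocyte-like cells. F13a1, Fn1 and Ms4a6c stood there at only 0.707% of their monocyte-like level, so the sum need not be monocyte RNA. The part of monocyte RNA in the Cybb ratio was not tested.

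**Figure D4:**
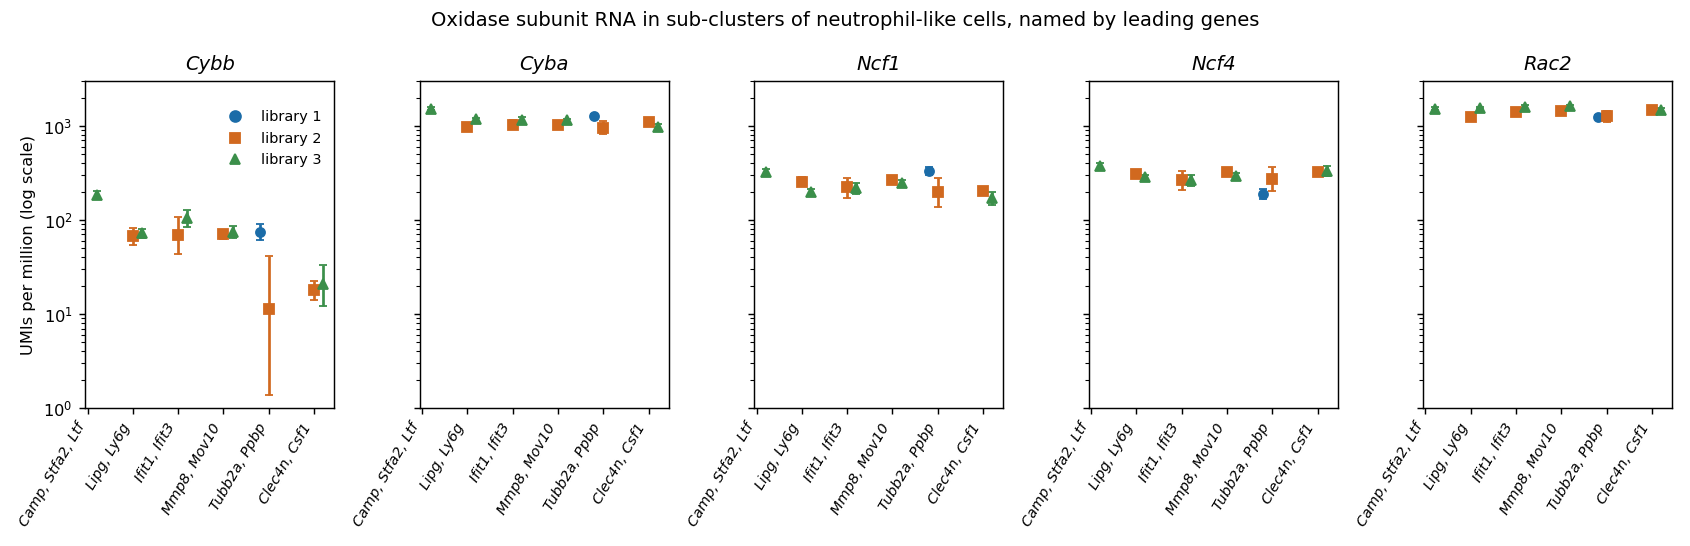
CPM (log scale) of each subunit gene in sub-clusters of neutrophil-like cells with at least 50 cells in a library, with exact 95% Poisson intervals. Cybb falls from 186 in the Camp-led to 18.0 and 20.9 in the Clec4n-led cells, while Rac2 stays between 1242 and 1615.

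Cybb in the remaining sub-clusters is given with the libraries that held enough of their cells. An interferon-response sub-cluster led by Ifit1 and Ifit3 had 69.7 CPM (43.2 to 107) in library 2 and 104 CPM (83.6 to 128) in library 3. A sub-cluster led by Lipg and Ly6g that also held platelet genes had 67.5 and 72.3 CPM in libraries 2 and 3. The sub-cluster led by the platelet genes Tubb2a and Ppbp, home of 494 of the 542 neutrophil-like cells of library 1, had 75.3 CPM there and 11.4 CPM (1.37 to 41.0) in 52 cells of library 2, from 2 UMIs.

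Monocyte-like cells were split into the classical type, which enters tissue by way of Ccr2, and the non-classical type of the vessel wall. Cybb was higher in the non-classical sub-cluster of both libraries that allowed the comparison. In library 3 it stood at 1799 CPM in the Fcgr4-led non-classical and 1325 CPM in the Vcan-led classical cells, a ratio of 1.36 (1.29 to 1.42). In library 1 it stood at 2296 CPM in the Cd300e-led non-classical and 1861 CPM in the classical cells led by Ifit3 and Rsad2, a ratio of 1.23 (1.17 to 1.30). Ncf1, Ncf4 and Cyba gave no direction shared by the libraries. Ncf1 was 1.05 times (0.862 to 1.28) the classical level in library 3 and 0.754 times (0.593 to 0.954) in library 1. Ncf4 was 0.723 times (0.644 to 0.810) the classical level in library 3 and 1.15 times (0.965 to 1.37) in library 1, and Cyba 0.889 times (0.851 to 0.930) and 1.22 times (1.15 to 1.29). Rac2 lay at 0.911 (0.831 to 0.997) and 0.944 (0.833 to 1.07). In library 2 a sub-cluster led by H2-Ab1 and C1qb with Cd209a markers had the lowest monocyte-like Cybb, 799 CPM (729 to 874) in 55 cells.

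Among the lymphocyte clusters, 2 patterns were picked out after their values were seen. A B-like cluster led by the interferon-induced genes Ifit3 and Ifi206 held Cybb at 345 (288 to 410), 284 (227 to 351) and 341 (296 to 392) CPM in 85, 69 and 133 cells. Every other B-like cluster lay between 109 and 198 CPM, so the intervals do not meet in libraries 1 and 3, and the lower bound of 227 in library 2 lies above the other clusters' values. Its Cyba, Ncf1, Ncf4 and Rac2 lay within the range of the other B-like clusters, apart from Rac2 in library 1 at 549 CPM against 568 to 800. The T-like cluster with Cd8a and Cd8b1 held Ncf1 at 12.2 (9.12 to 16.0), 19.1 (12.9 to 27.3) and 14.5 (10.6 to 19.4) CPM. The cluster with Cd4 held 3.74 (1.99 to 6.39), 0.563 (0.0143 to 3.14) and 3.98 (1.82 to 7.55) CPM, lower in each library without overlap of the intervals. The part of Gtf2ird2 reads in these low Ncf1 values was not tested.

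Detection per cell was compared after each cell was thinned to 1000 UMIs, which left out between 11 and 128 neutrophil-like cells and at most 4 monocyte-like cells in a library. Cybb was then seen in 82.9%, 69.9% and 69.1% of monocyte-like cells and in 6.21%, 3.89% and 6.13% of neutrophil-like cells. In T-like cells, taken as background, it was seen in 0.248%, 0.193% and 0.124%, and in erythroid-like cells in 0.704%, 1.56% and 2.82%. Unthinned, it was seen in 99.5%, 99.0% and 98.1% of monocyte-like and 14.0%, 11.7% and 25.8% of neutrophil-like cells. Cyba, at 1000 UMIs, was seen in 71.2%, 63.5% and 65.3% of neutrophil-like cells and Rac2 in 66.9%, 75.7% and 77.7%, so most of these cells showed the partner of gp91phox without a Cybb UMI.

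Cells with UMIs of both membrane subunits made up 63.6%, 54.5% and 57.0% of monocyte-like cells and 4.71%, 2.55% and 3.92% of neutrophil-like cells at that depth. They made up 6.45%, 6.54% and 7.04% of B-like cells. In T-like cells none of 1210, 519 and 805 held both, with upper bounds of 0.304%, 0.708% and 0.457%. At least 3 of the 5 members were seen in 39.6%, 35.7% and 38.3% of monocyte-like, 22.2%, 25.1% and 26.0% of neutrophil-like and 10.3%, 10.7% and 11.9% of B-like cells. In T-like cells the share was at most 0.496%. These shares follow the depth: unthinned, at least 3 members were seen in 97.3%, 97.1% and 95.9% of monocyte-like and 71.4%, 75.0% and 84.1% of neutrophil-like cells.

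**Figure D5:**
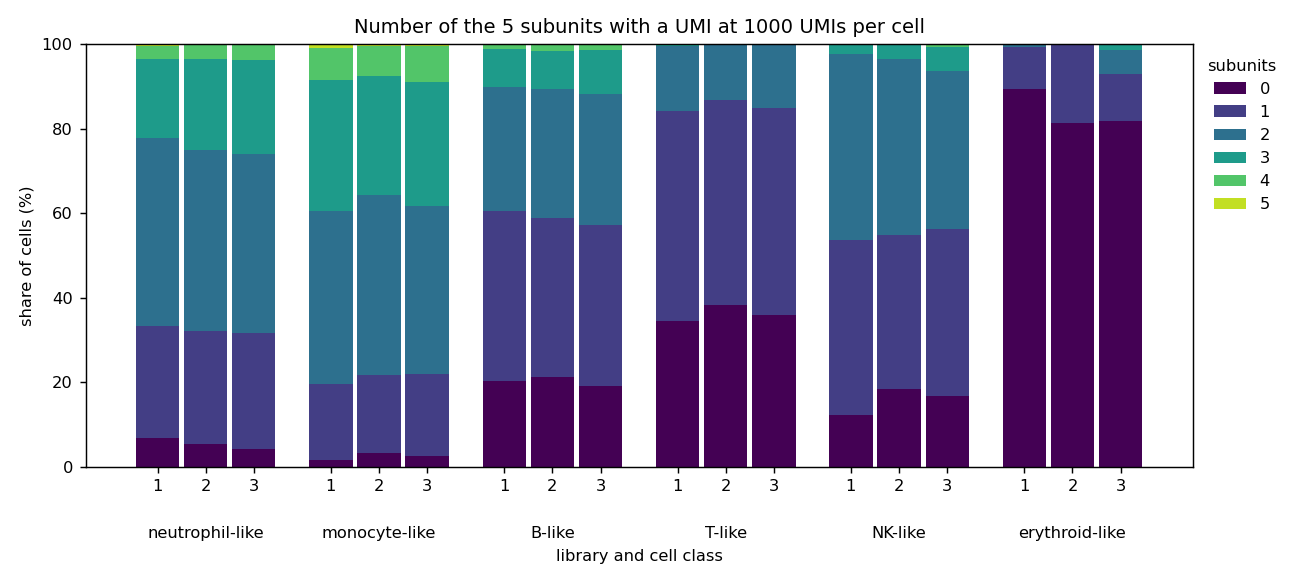
Share of cells (%) with a UMI of 0 to 5 of the subunit genes after thinning to 1000 UMIs per cell, by class and library. Cells with none make up at most 6.78% of neutrophil-like and 3.37% of monocyte-like cells and between 81.2% and 89.4% of erythroid-like cells.

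Free RNA of broken cells gives UMIs in droplets of other classes, and genes that are high in 1 class give a rough estimate of its level. The monocyte genes F13a1, Fn1 and Ms4a6c stood in neutrophil-like cells at 1.96%, 0.589% and 0.707% of their monocyte-like level. If all of that were monocyte RNA, it would bring 37.2, 7.94 and 9.95 CPM of Cybb, against 86.3, 50.05 and 92.5 CPM measured. In B-like cells it would bring 19.9, 6.37 and 10.9 CPM, against 179, 150 and 178 CPM. In T-like cells the same figure, 29.9, 10.95 and 11.5 CPM, exceeded the Cybb measured, so the estimate is too high there. Platelet marker genes were also highest in library 1 in neutrophil-like, B-like and T-like cells, and platelet RNA as a source of F13a1, Fn1 and Ms4a6c was not tested. S100a8 and S100a9 stood in T-like cells at 0.0362%, 0.288% and 0.197% of their neutrophil-like level, which would bring at most 0.679 CPM of Ncf1, against 8.40 to 10.1 CPM measured, where Gtf2ird2 on the other strand held 6.72 to 7.83 CPM. Actb and Ptprc, genes of all leukocytes, reached 12297 to 15585 and 956 to 2085 CPM in neutrophil-like cells.

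Of the 14 oxidase partners and regulators of the GTPase cycle, all were measured, with at least 20 UMIs in each library, and 7 had a leading class by the rule above. Arhgap25, which switches Rac off, was highest in neutrophil-like cells at 147, 126 and 96.0 CPM. B-like cells were next, at 87.7, 89.6 and 81.7 CPM, and monocyte-like cells held 40.7, 32.9 and 32.0 CPM. Monocyte-like cells led for Rap1a, for Nrros, which controls gp91phox stability, and for Tiam1, and NK-like cells for Prex1 and Dock2, exchange factors that load Rac with GTP, where 3.65% of all genes had NK-like cells as leading class. With TMM scaling 8 of the 14 had a leading class, 6 of them in neutrophil-like cells (14.8% of all genes with that scaling) and 2 in monocyte-like cells (5.08%), and Nrros, Prex1 and Dock2 had none. Of the 14 kinases and lipid signalling genes 5 had a leading class: Irak4 in neutrophil-like, Prkcd and Pla2g4a in monocyte-like, and Prkcb and Btk in B-like cells, which led for 3.95% of all genes. With TMM scaling 9 of the 14 had one, 8 of them in neutrophil-like cells, against 14.8% of all genes, and Btk in B-like cells, against 4.33%. Prkcd, Pla2g4a and Prkcb then had no leading class. With plain CPM neutrophil-like cells led for 6.16% of all genes and monocyte-like cells for 6.51%.

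The genes that serve the burst with protons and NADPH were split as well. Of 9, 7 were measured and 5 had a leading class. Neutrophil-like cells led for 2 of them, monocyte-like cells for 1 and B-like cells for 2. Over 11128 genes the shares of these classes were 6.16%, 6.51% and 3.95%. With TMM scaling the counts were the same, against 14.8%, 5.08% and 4.33% of all genes. Pgd and Taldo1, of the pentose phosphate pathway, led in neutrophil-like cells, with Taldo1 at 2685, 1747 and 1534 CPM. Idh1 led in monocyte-like cells. Pgls and the proton channel Hvcn1 led in B-like cells, with Hvcn1 at 269, 306 and 266 CPM there and at most 13.9 CPM in either phagocyte class. Me1 held 1 UMI and Mpo, the peroxidase of granulocyte precursors, 7 UMIs in all. Of the 7 other NADPH oxidase family genes none reached 20 UMIs in each library, and Nox3, Nox4, Duox1 and Duox2 stood at 0 UMIs.

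Of 9 transcription factors described at phagocyte oxidase genes, all were measured and 5 had a leading class. Spi1, which encodes PU.1, was highest in neutrophil-like cells at 916, 1281 and 1097 CPM. Monocyte-like cells held 667, 749 and 795 CPM of it and B-like cells 106, 112 and 116 CPM. Cebpe also led in neutrophil-like cells, and Cebpa and Cebpb in monocyte-like cells. Neutrophil-like cells thus led for 2 of the 9, against 6.16% of 11128 genes, and monocyte-like cells for 2, against 6.51%. NK-like cells led for 1, against 3.65%. Irf8 led in NK-like cells at 529, 587 and 474 CPM with monocyte-like cells at 264, 226 and 213 CPM and B-like cells at 278, 315 and 314 CPM. With TMM scaling Cebpb had no leading class, Irf1 had neutrophil-like cells, and Irf8 stayed with NK-like cells, which then led for 1.81% of all genes. Neutrophil-like cells then led for 3 of the 9, against 14.8% of all genes, and monocyte-like cells for 1, against 5.08%.

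Likeness between genes was described by Pearson's r of log2(CPM + 1) over 18 profiles of 6 classes in 3 libraries, among 6589 genes. The profiles share libraries, and r follows mostly the differences between classes. By r, Ncf4 was most like Cyba among the members (0.88) and Cybb most like Ncf1 (0.77), while Cybb with Rac2 gave -0.03. By Spearman's rho Cybb was nearer to Ncf4 (0.71) than to Ncf1 (0.68), and Cybb with Rac2 gave -0.33. The genes most like Cybb were BC028528, Apoe, Evi5, Tifa and Ctsz (r from 0.95 to 0.98), and those most like Cyba were Ehbp1l1, Vamp8, Ugp2, Rhoa and Lamtor4 (0.98 to 0.99). Ncf1 was most like Xylt1, Marcksl1, Plaur, Eif2ak3 and Spi1 (0.94 to 0.96), and Ncf4 most like Kctd12, Notch2, Bcl6, Bcl10 and Atp6ap1 (0.94 to 0.96). Among the genes most like Rac2 were Cdkn1b, Nsd3 and Pacs1 (0.97 each). By Spearman's rho 4 of the 5 genes stayed among the first 5 for Cybb, 1 for Cyba and none for Ncf1, Ncf4 and Rac2.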

How the data were processed

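The deposited values are raw UMI counts per gene and barcode, written by Cell Ranger 6.0.2 per the file headers. Per the submitters' processing notes, GRCm38 was the build and the tools included Seurat 3.0, R 4.0.2, Cell Ranger 4.0.0 and Trimmomatic 0.39. Which Cell Ranger version set the counts, and how cells were called, are not given in the sources used here.

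Cells needed 200 genes or more and no more than 10% mitochondrial UMIs. Scrublet (scanpy 1.11.5) was run per library at 6% expected doublets. Its automatic threshold called 7 of 7122 cells in library 1, so 1 score threshold of 0.25 was set for all libraries after the data were seen, and 3.62%, 3.40% and 3.58% of cells were left out. After scaling to 10000 UMIs and a log transform, cells were clustered with the Leiden method (leidenalg 0.10.2) at resolution 1 on 2000 variable genes, 30 components and 15 neighbours, without the members and listed genes and without integration. The 2 phagocyte classes were sub-clustered at resolution 0.5. A name needed 3 markers, each seen in 20% of the cluster's cells or more with a log2 fold of 0.5 or more, and that scoring was set after the data were seen. Unnamed clusters were left out of the classes.

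UMIs were summed per class and library and given per 1000000, with exact Poisson, Clopper-Pearson or conditional binomial intervals. TMM factors came from edgeR 4.0.16. The ratio and calling steps were run on simulated Poisson counts, the model that their intervals assume. Spread between cells, misplaced cells and free RNA were not simulated. The members and lists were chosen with earlier results of these data known. Beside the members, the text names the 5 genes most like each, list genes with a leading class or at 0 UMIs, and a few control genes. A few genes that this rule names are not reported here. All columns of the matrix belong to the 3 libraries. Alternatives covered the cell filter, doublets, scaling, resolution, clustering genes and thinning depth.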

Additional observations from a re-analysis of the deposited data

Results flagged for a closer look

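Both clusters left unnamed, and so outside the comparisons of classes, carried Cybb RNA above the T-like level of at most 3.91 CPM. In a cluster led by the platelet genes Tubb2a, Slc6a4 and Gp5 that also met the B cell markers, Cybb stood at 150.9, 178.9 and 145.4 CPM in libraries 1, 2 and 3, from 434, 32 and 89 cells, beside 179, 150 and 178 CPM in B-like cells. In a cluster led by Cd209a, Ikzf2 and Clec10a it stood at 212.4, 418.9 and 421.9 CPM, from 40, 27 and 23 cells, beside 799 CPM in the Cd209a-marked monocyte-like sub-cluster of library 2.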

How the results depend on the processing

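Counting error, 1 library per group and unmatched depth limit these values, and the cause of the changes below was not tested unless the scaling itself sets them. The neutrophil-to-monocyte ratios are given as the median log2 ratio of the 3 libraries. The count of members highest in neutrophil-like cells, 2, became 1 with the strict filter (a minimum of 500 genes and a maximum of 5% mitochondrial UMIs per cell) and 4 with TMM scaling. That in monocyte-like cells, 2, became 1 with the strict filter, with TMM and without S100a8 and S100a9 in the totals. The Cyba log2 ratio, -0.60, was -0.52 with the strict filter and -0.086 without S100a8 and S100a9, in both cases with an interval that includes 1, and 0.48 with TMM. That of Ncf4, -0.01, was 0.047 with the strict filter, 0.036 with doublets kept, 1.09 with TMM, 0.076 at resolution 2 and 0.44 without S100a8 and S100a9. Leaving out each library in turn gave -4.60 to -4.19 for Cybb, -0.60 to -0.42 for Cyba, 1.15 to 1.28 for Ncf1, -0.027 to 0.0050 for Ncf4 and 1.59 to 1.70 for Rac2. In this ratio Cybb, Ncf1 and Rac2 kept their direction and call under every alternative run. Members at least 1.5 times apart between libraries numbered 4 in neutrophil-like cells with TMM, not 2, and 1 in B-like cells with the strict filter, not 0. Taken in the direction of the libraries that were highest and lowest, the ratio was 0.999 for Cyba in B-like cells with the strict filter, and 0.713 for Cyba and 0.745 for Ncf1 in neutrophil-like cells with TMM. The share of cells with at least 3 members was 58.9%, 57.8% and 58.7% of neutrophil-like and 68.0%, 71.6% and 74.4% of monocyte-like cells at 2000 UMIs, and 71.4%, 75.0% and 84.1% and 97.3%, 97.1% and 95.9% unthinned. The kinase list had 9 genes with a leading class under TMM, not 5. No paired analysis was possible because each group has 1 library and no barcode ending is tied to a group.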
